A study of Oryza sativa and Arabidopsis thaliana with 28 samples.

Results

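The multiple organellar RNA editing factors (MORF) are a family of 9 nuclear-encoded Arabidopsis proteins, chosen here by gene code as MORF1 to MORF9. The table of ribosome-bound and total mRNA holds 21174 genes, with 7 of the 9 members among them. MORF1 (AT4G20020) and MORF2 (AT2G33430) were not analysed here, which left 7 members: MORF3 (AT3G06790), MORF4 (AT5G44780), MORF5 (AT1G32580), MORF6 (AT2G35240), MORF7 (AT1G72530), MORF8 (AT3G15000) and MORF9 (AT1G11430). All samples used here were Arabidopsis Col-0 seedlings. The series profiled N4-acetylcytidine (ac4C), a modified cytidine of RNA, and the association of mRNAs with ribosomes. A pair of assays bears on the family. In RNC-seq, RNA pelleted with ribosome-nascent chain complexes (RNC) through a sucrose cushion, from lysate with cycloheximide, was sequenced beside total mRNA, with 2 libraries each and no age given in the labels. In ac4C-seq, poly(A) RNA of 10-day-old seedlings was reduced with NaCNBH3 in acid for 20 min, which makes ac4C appear as T in the reads, and set against a mock control in acid alone, with 1 library each. No group used here carried a mutation or transgene.

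In plant organelles, specific cytidines of the transcripts are deaminated to uridines, and this C-to-U editing restores conserved codons. Pentatricopeptide repeat (PPR) proteins recognise particular sites, and MORF proteins bind PPR proteins and each other and are needed at many sites. MORF2 and MORF9 act in chloroplasts, MORF8 (also called RIP1) is found in both chloroplasts and mitochondria, and the other members are assigned to mitochondria. The measurements concern the cytosolic mRNAs that encode these proteins, and not the edited organelle transcripts. Symbols were paired with codes from general knowledge. On build TAIR10 MORF5 lies on chromosome 1 at 11783543 to 11785704, MORF7 on chromosome 1 at 27312954 to 27314644, MORF6 on chromosome 2 at 14844896 to 14846359, MORF3 on chromosome 3 at 2144384 to 2145807 and MORF4 on chromosome 5 at 18067925 to 18070928.

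By the step size of their values, the mRNA libraries held 39128550 and 39339118 reads, of which 18768358 and 18847446 fell on genes of the table. The RNC totals, 142189656 and 131616714, were inferred from ratios of values between the 2 libraries and between transcripts of a gene. The smallest reads that the RNC values allow add up to 21158025 and 19593759 over genes, and the true sums may be higher. Green shoot genes RCA, LHCB1.1, LHCA4 and GAPB lay between 532 and 4117 RPKM in mRNA, 4 root genes between 0.238 and 7.35, and the floral gene AG at 0.0157; the remaining markers listed for shoot, seed and flower were not analysed here. In whole seedlings, fewer cells of a type and less RNA per cell cannot be told apart. The labels do not say whether the libraries of a group came from separate cultures, so p-values cover only the spread between these libraries.

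The members fell into 3 tiers of mRNA level, with MORF9 and MORF8 highest and MORF4 and MORF7 lowest. Levels are the deposited RPKM, which for mRNA are reads scaled to the length of the gene's span, introns included, and to the total reads of the library. MORF9, the chloroplast member, had 26.0 and 24.1 RPKM in the mRNA libraries (25.1 ± 1.33, SD, n = 2). MORF8, the member of both organelles, had 21.9 and 22.7 RPKM (22.3 ± 0.561). Their ranges did not overlap, and the ratio of the means was 1.12.

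The mitochondrial members MORF5, MORF6 and MORF3 formed the middle tier and could not be ordered, since neighbours overlapped in range. MORF5 had 9.25 and 8.85 RPKM in mRNA, MORF6 had 9.05 and 8.55, and MORF3 had 9.50 and 7.82. MORF8 stood 2.47-fold above MORF5, and MORF3 stood 7.21-fold above MORF4. MORF4 had 1.17 and 1.23 RPKM, and MORF7 had 1.07 and 0.677 RPKM, from 71 and 45 reads. MORF4 exceeded MORF7 by 1.37-fold without overlap, over few reads. The level of MORF4 is uncertain, since its span shares 1479 bases with AT5G44785 on the opposite strand, which had 545 and 649 reads in mRNA. Among all genes of the table, the mean mRNA level of MORF9 and MORF8 stood at percentiles 93.4 and 92.5, that of the middle tier between 80.5 and 81.2, and that of MORF4 and MORF7 at 32.9 and 26.7.

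**Figure D1:**
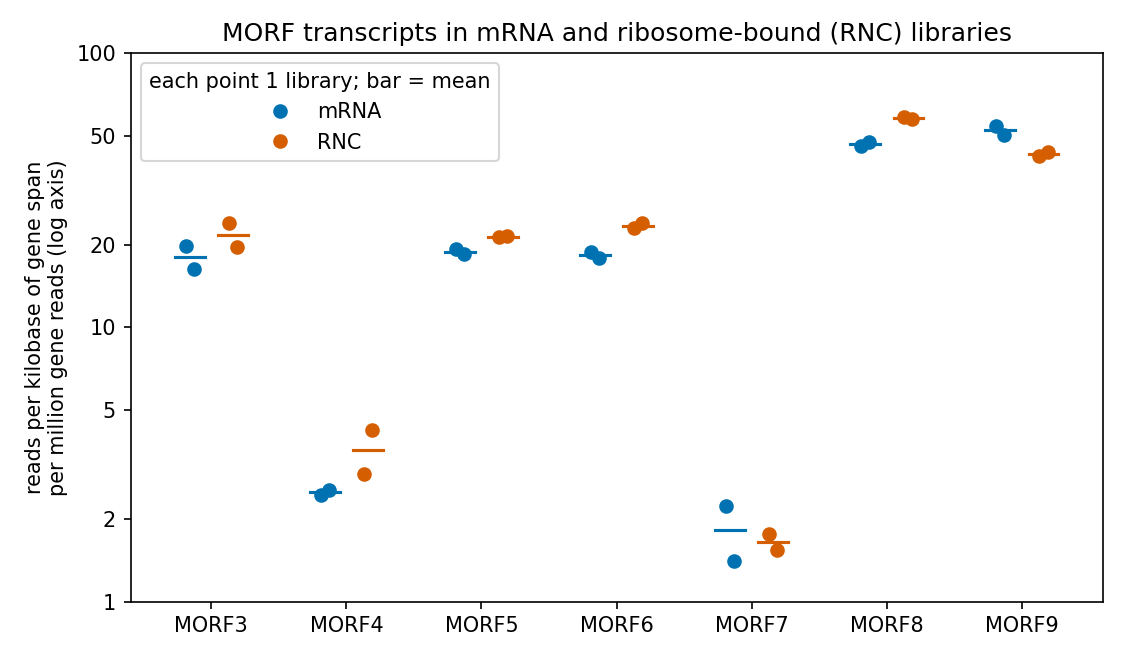
Level of 7 MORF transcripts in mRNA (blue) and RNC (orange) libraries, in RPKM over the gene's span and the library's gene reads on a log axis, with 1 point per library and a bar at the mean of 2. RNC points use the smallest reads the values allow, with which MORF9 is highest in mRNA, MORF8 is highest in RNC, and MORF4 and MORF7 lie lowest in both; the order of MORF8 and MORF9 in RNC turns if the reads of MORF9 are 2 times as many.

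The next question was whether ribosome-bound levels departed from mRNA levels. Counted in reads and relative to all reads over genes, MORF8 and MORF6 stood higher in the RNC fraction and MORF9 lower, each by less than 1.3-fold, and the other 4 members were not called. The deposited values gave MORF8 and MORF9 the opposite signs. They differ from the reads in both length and scaling. The length that the RNC values imply was 1242 bases for MORF8, 164 for MORF9 and 99 for MORF6, against gene spans of 2260, 2004 and 1463 bases. Over all genes its rank correlation with the span was -0.093 (Spearman's rho, a description across genes). RNC reads were therefore recovered as the smallest whole numbers that the deposited values allow. They were turned into RPKM over the gene's span and the library's reads over genes (span RPKM), and mRNA reads were treated alike. For MORF8 the deposited RNC mean was 15.7 RPKM, its own span with all reads of the library gave 8.63, below the 22.3 of mRNA, and its span RPKM over gene reads was 58.0 against 46.6 in mRNA, so its rise rests on the scaling to gene reads and not on the length. For MORF9 the same steps gave 78.0, 6.38 and 42.9 against 25.1 and 52.3 in mRNA, so it lay below mRNA once its own span was used, under both scalings. By the recovered reads, 14.9% of all reads in RNC fell on genes, against 47.9% to 48.0% in mRNA. Given the inferred totals, the 14.9% is a minimum, since true reads may be multiples of those recovered. If many are, the median change scaled to all reads is too low, and the RNC span RPKM of the other genes are too high. Scaled to all reads of the library, the median change of all genes was -1.23, and 12999 of 13047 genes tested were lower. MORF8, MORF6 and MORF9 were then at -1.28, -1.12 and -1.82. Every direction given from reads below is therefore relative to the other genes.

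MORF8 had 1940 and 2021 reads in mRNA and 2799 and 2543 in RNC. In span RPKM these were 45.7 and 47.4 in mRNA and 58.5 and 57.4 in RNC. Both RNC libraries lay above both mRNA libraries. The log2 change was 0.31 (SE 0.06, 95% interval 0.18 to 0.44, limma adjusted p = 0.00371).

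MORF6, a mitochondrial member, had 518 and 492 reads in mRNA and 713 and 687 in RNC, or 18.9 and 17.8 against 23.0 and 24.0 span RPKM. The fractions did not overlap, and the log2 change was 0.34 (SE 0.07, interval 0.17 to 0.51, limma adjusted p = 0.00731). MORF9 had 2040 and 1903 reads in mRNA and 1783 and 1715 in RNC, or 54.2 and 50.4 against 42.1 and 43.7 span RPKM. Both RNC libraries lay below both mRNA libraries, with a log2 change of -0.28 (SE 0.06, interval -0.43 to -0.13, limma adjusted p = 0.00982). This call was lost when libraries were centred on their medians (-0.19, limma adjusted p = 0.0525), without mRNA replicate 1 (-0.23, 0.0563) and without RNC replicate 1 (-0.25, 0.0508).

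By recovered reads, the 2 most abundant members stood in opposite order in the fractions. The ratio of MORF8 to MORF9 in span RPKM was 0.843 and 0.942 in the mRNA libraries and 1.39 and 1.31 in the RNC libraries. This ratio is free of library scaling, and it differed by 0.60 on the log2 scale between the fraction means without overlap. An exact two-sided permutation test of 2 against 2 libraries gave p = 0.333, the smallest that this design allows. If the true RNC reads of MORF9 were 2 times those recovered, the RNC ratios would be 0.696 and 0.657, the same order as in mRNA. In the deposited RNC values, with their other lengths, MORF9 lay above MORF8 as well.

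The remaining 4 members were not called from reads. MORF4 had 138 and 145 reads in mRNA and 186 and 249 in RNC, with a log2 change of 0.37 (limma adjusted p = 0.0970). MORF4 shares 1479 bases with AT5G44785 on the opposite strand, which had more reads (545 to 901 per library), and whether the authors counted by strand is not given in the sources used here, so its reads are uncertain. MORF5 had a log2 change of 0.17 (782 and 752 reads in mRNA, 973 and 909 in RNC, limma adjusted p = 0.0925). Each had RNC values above its mRNA values in both libraries, and both passed the threshold when libraries were centred on their medians (0.46 and 0.26, limma adjusted p = 0.0435 and 0.0245). MORF3 had 529 and 438 reads in mRNA and 721 and 547 in RNC, a change of 0.26 (limma adjusted p = 0.128) with overlapping fractions. MORF3 shares 137 bases with AT3G06780 on the opposite strand, while MORF9 shares 23 bases with AT1G11440 on the same strand. MORF4 passed the threshold without RNC replicate 1 (0.58, limma adjusted p = 0.0233) and MORF3 without RNC replicate 2 (0.39, 0.0402). MORF7 had 71 and 45 reads in mRNA against 63 and 51 in RNC, and its change of -0.08 had an interval from -0.47 to 0.31.

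Over all 17394 genes tested from reads, 16.6% were called higher in RNC and 20.6% lower. The family had 2 of 7 higher and 1 of 7 lower, too few members to set against that background. The median change was 0.26 over the members and -0.01 over all genes. A recovered number is the smallest one possible, and the true one may be a multiple of it. If the true RNC reads of MORF9 were 2 times those recovered, its change would be just under 0.72 in place of -0.28. If those of MORF8 were 2 times as many, the change of MORF8 would be just under 1.31 in place of 0.31.

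In the deposited values, MORF4, MORF5, MORF6, MORF9 and MORF3 were higher in RNC and MORF8 was lower (5 and 1 of 6 tested, against 76.1% and 13.1% of 16487 genes tested). MORF7 did not reach the minimum mean of 1 RPKM. MORF6 had 50.7 and 52.7 RPKM in the RNC libraries (51.7 ± 1.47, SD, n = 2) beside 8.80 ± 0.354 in mRNA, or 2.43 higher on the log2(RPKM + 1) scale (limma adjusted p = 1.32e-12). MORF8 had 15.8 and 15.6 RPKM in RNC, below both mRNA libraries (-0.48, limma adjusted p = 1.65e-05). MORF9 had 76.5 and 79.5 RPKM in RNC, above both mRNA libraries (1.60, limma adjusted p = 2.21e-11). MORF8 and MORF9 thus had the opposite sign to their changes from reads. MORF4 had 5.92 and 8.56 RPKM in RNC (a log2 change of 1.89), MORF5 had 18.2 and 18.3 (0.94), MORF3 had 14.3 and 11.7 (0.53), and the untested MORF7 had 0.243 and 0.213.

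Centring each library on its median left MORF6, MORF4 and MORF9 higher (1.38, 0.84 and 0.55) and MORF8 and MORF3 lower (-1.53 and -0.51), where 38.7% of all genes tested were higher and 43.8% lower. In the authors' deposited table, translation efficiency (TE), the natural log of the ratio of mean RNC to mean mRNA RPKM, was -0.35 for MORF8, 1.13 for MORF9 and 1.77 for MORF6. The same table gave the transcripts AT3G06790.1 and AT3G06790.2 of MORF3 a TE of 0.18 and 0.59. Both rest on the same reads, 721 and 547 in RNC, divided by implied lengths of 446 and 295 bases.

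**Figure D2:**
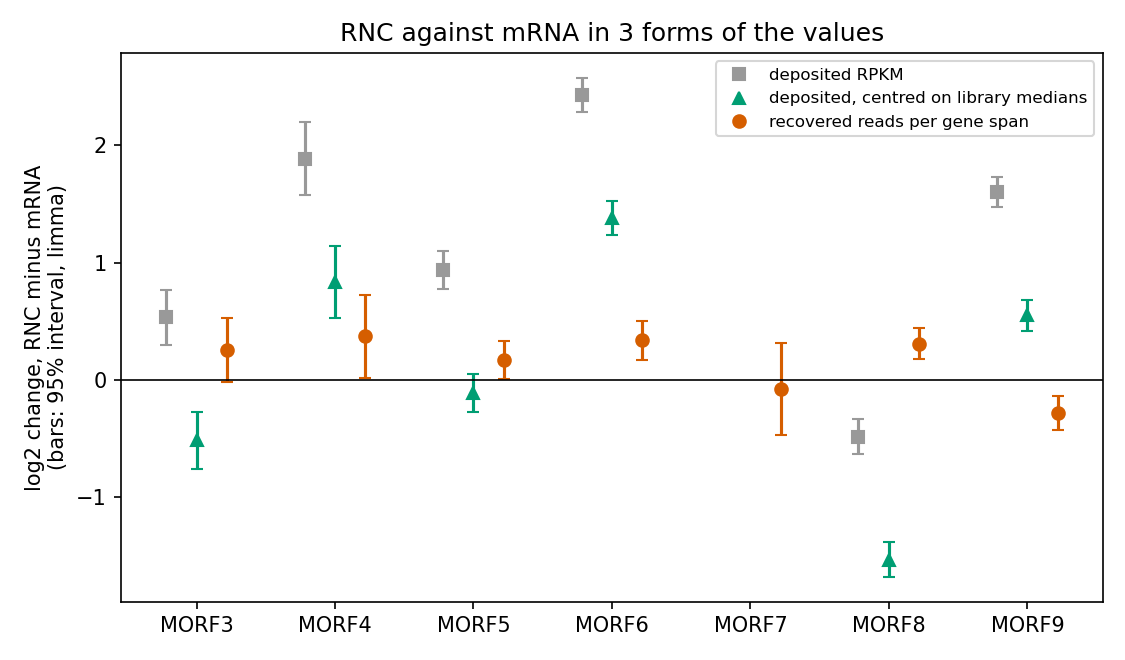
Log2 change from mRNA to RNC of each MORF member with its 95% limma interval, from the deposited RPKM (grey), the same after centring on library medians (green), and recovered reads per gene span (orange). From reads the changes lie between -0.28 and 0.37, and MORF8 and MORF9 change sign between the deposited values and the reads.

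In ac4C-seq, MORF8 and MORF9 were the members in which listed C-to-T positions lay. Each listed position is a reference cytosine with a count of T reads and of all reads per library, and every listed position of the table had at least 5 treated T reads. Positions carry no strand, so they can be read for plus-strand genes, which MORF4, MORF5, MORF7, MORF8 and MORF9 are. MORF4, MORF5 and MORF7 held no listed position. The table gives no depth where nothing is listed, so no limit can be set for them. The spans of MORF3 and MORF6, on the minus strand, also held 0 listed positions.

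MORF8 (chromosome 3, 5050195 to 5052455, build TAIR10 per the submitters' processing notes) held 16 listed positions. All 16 were called higher in the treated library (two-sided Fisher's exact test, Benjamini-Hochberg adjusted p from 5.07e-06 to 0.00638), as were 94.3% of the 66873 positions tested in the table. Every listed position had at least 5 treated T reads, so the listing itself favours such a call. The p-values of listed positions are therefore no independent support for a conversion. The 16 positions had 5 to 10 T reads of 217 to 366 treated reads, a rate of 1.37% to 3.60% with a median of 1.74%. Of the 16, 9 stood at the listing minimum of 5. In the control library 15 of them had 0 T reads of 727 to 978, which allows rates of up to 0.307% to 0.413%. The highest rate was at base 1397 of the gene, counted from its start (position 5051591), with 8 of 222 treated reads or 3.60% (95% Clopper-Pearson interval 1.57 to 6.98) against 0 of 874. Base 355 (position 5050549) had 10 of 332 or 3.01% (1.45 to 5.47) against 0 of 887.

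The other called positions of MORF8 had lower rates. Base 445 (position 5050639) had 9 of 325 treated reads or 2.77% (1.27 to 5.19), and base 1554 (position 5051748) had 6 of 217 or 2.76% (1.02 to 5.92). Base 1371 (position 5051565) was the one MORF8 position with control T reads, at 1.89% against 2 of 996 reads or 0.201% (0.0243 to 0.723). With the deposited adjusted p it was not called (0.0650). The positions lay in 2 stretches of the gene, 13 between bases 200 and 483 and 3 between bases 1371 and 1554, 888 bases apart. Bases 354 and 355 are neighbours, and positions within a stretch can share reads, so they are not independent. Whether these bases are exonic was not determined, since no gene structure was used here.

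MORF9 (chromosome 1, 3847220 to 3849224) held 2 called positions. Base 394 (position 3847613) had 9 of 278 treated reads or 3.24% (1.49 to 6.06) against 0 of 1544 control reads, which allows up to 0.194% (Fisher's exact test, adjusted p = 1.36e-07). Base 1421 (position 3848640) had 5 of 298 or 1.68% (0.547 to 3.87) against 0 of 1529, which allows up to 0.196% (adjusted p = 0.000184). Intervals and limits cover counting error only, and the tests compare 2 libraries, not 2 conditions. The treated intervals and the p-values take no account of the listing at 5 or more treated T reads, which favours high treated rates.

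**Figure D3:**
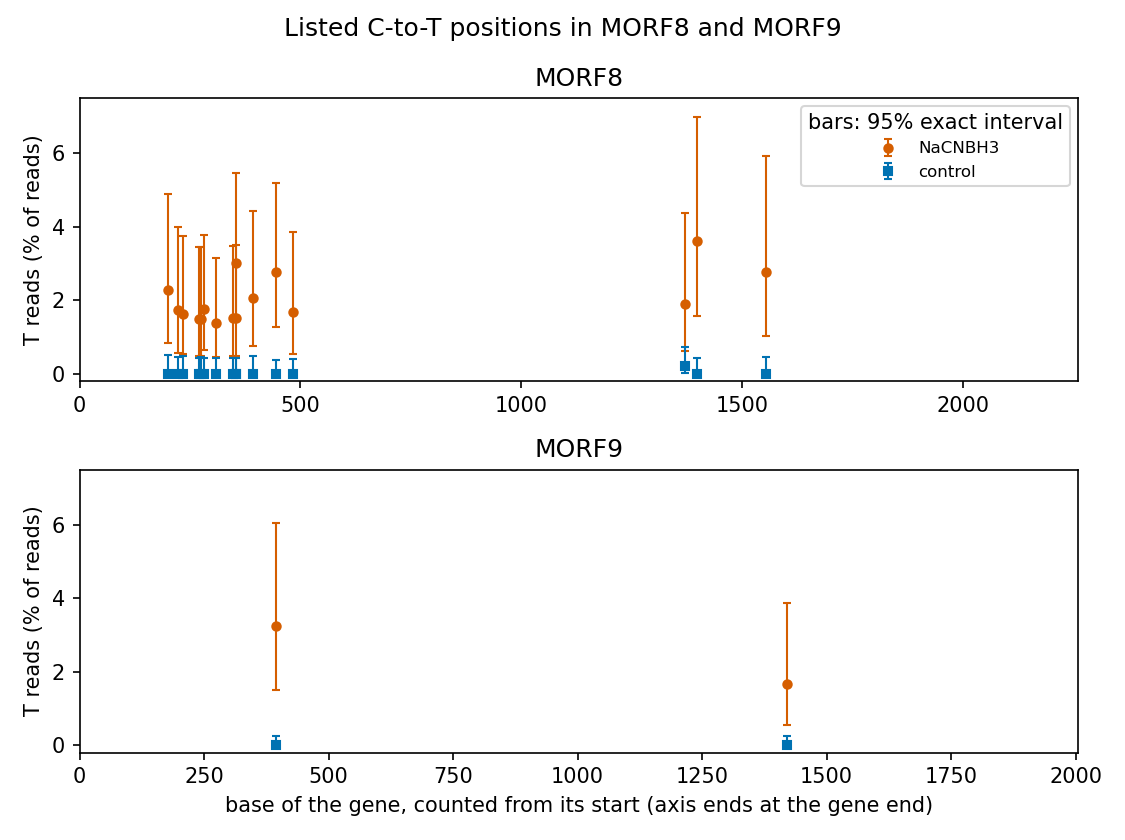
T reads as a percentage of reads at each listed position of MORF8 (above) and MORF9 (below), treated library in orange and control in blue, with 95% exact intervals, against the base of the gene counted from its start. All rates in the treated library lie between 1.37% and 3.60%, and the 16 positions of MORF8 fall in 2 stretches.

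The median rate was 1.74% over the positions of MORF8 and 2.46% over the 2 of MORF9. Over 8367 nuclear positions with treated depths in the range of those of the members, the median was 2.14% treated and 0 control, with 94.6% called. With at least 5 treated T reads at each listed position, the lowest rate that can be listed falls with depth. These medians therefore depend in part on depth. Of all plus-strand genes, 34.0% held a called position, against 2 of 5 plus-strand MORF genes. The share rose from 2.82% in the lowest 10% of plus-strand genes by mRNA level to 84.8% in the highest 10%, where MORF8 and MORF9 stood. MORF5 stood in the next 10%, of which 70.7% held one, while MORF4 and MORF7 stood where 14.7% and 7.82% did. The median number of called positions per gene in that highest 10% was 14. Of all 10620 plus-strand genes, 628 held at least 16 called positions, the number in MORF8, and 2428 held at least 2, the number in MORF9. MORF8 thus had 8 times as many called positions as MORF9 at a slightly lower mRNA level. This contrast leans on the listing minimum of 5 T reads, at which 9 of the 16 and 1 of the 2 positions stood. Neighbouring positions can also share reads. Treated depth was 217 to 366 reads at the listed positions of MORF8 and 278 and 298 at those of MORF9, and it is not given elsewhere in either gene.

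Most MORF transcripts stood above the PPR editing factors in mRNA level and in the same range as other editosome proteins. The 36 PPR editing factors in the table had a median mRNA level of 0.438 RPKM and reached 9.99, against a median of 8.80 over 7 MORF members. MORF8 and MORF9 stood above all 36, MORF3, MORF5 and MORF6 above 35, MORF4 above 27 and MORF7 above 23. Within this list of editing factors, the highest levels were those of DYW1 (AT1G47580, 9.99 ± 0.261 RPKM, SD, n = 2), MEF14 (AT3G26780, 8.53 ± 0.0136) and DYW2 (AT2G15690, 3.06 ± 0.189). DYW1 supplies the deaminase-like domain for a chloroplast editing site, and DYW2 is a partner of PPR proteins in both organelles. The 10 other editosome proteins, RNA recognition motif and zinc finger proteins, had a median of 8.68 RPKM, near that of the MORF members. Of these, CP31A (AT4G24770; 126 ± 4.45), CP29A (AT3G53460; 49.1 ± 4.45) and ORRM5 (AT4G13850; 21.3 ± 0.991) were highest, and CP31A and CP29A exceeded every MORF member.

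From reads, 2 of 18 tested PPR editing factors were higher in RNC and 5 lower (median 0.05), and 1 of 9 other editosome proteins was higher and 3 lower (median 0.05), where 16.6% and 20.6% of all genes were. DYW1, MEF14, DYW2, CP31A and ORRM5 were not called (-0.06, 0.19, 0.08, 0.01 and 0.05). Also not called were ORRM1 (AT3G20930), a chloroplast editing protein, and ORRM6 (AT1G73530), at 0.07 and 0.10. Lower from reads were CLB19 (AT1G05750; -0.73, limma adjusted p = 0.00389) and OTP86 (AT3G63370; -0.78, 0.00397), chloroplast PPR proteins, ORRM2 (AT5G54580; -2.21, 2.37e-06) and CP29A (-0.83, 6.24e-05). A doubling of reads adds at most 1 on the log2(value + 1) scale, and less at low values. If the true RNC reads were 2 times those recovered, CLB19, OTP86 and CP29A would stand at no more than 0.27, 0.22 and 0.17. ORRM2 would stand at no more than -1.21. CLB19 and OTP86 lay below 1 span RPKM in both RNC libraries, so they would stay well below 0.27 and 0.22. In the deposited values 10 of 15 PPR factors were higher and 1 lower, and 8 of 9 other proteins were higher and 1 lower, beside 76.1% and 13.1% of all genes. ORRM1, DYW2, CLB19, OTP86, CP29A and ORRM6 were among the higher, the last 5 by 2.41, 1.79, 1.11, 2.42 and 1.60, and DYW1 and ORRM2 were the lower ones (-1.62 and -0.41). The listed editing genes nearest to MORF9 over the 4 libraries on the log2(RPKM + 1) scale were ORRM5, ORRM4 (AT1G74230) and ORRM6, at Euclidean distances of 1.97, 2.37 and 2.77. These distances use the deposited RNC values and so their lengths.

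**Figure D4:**
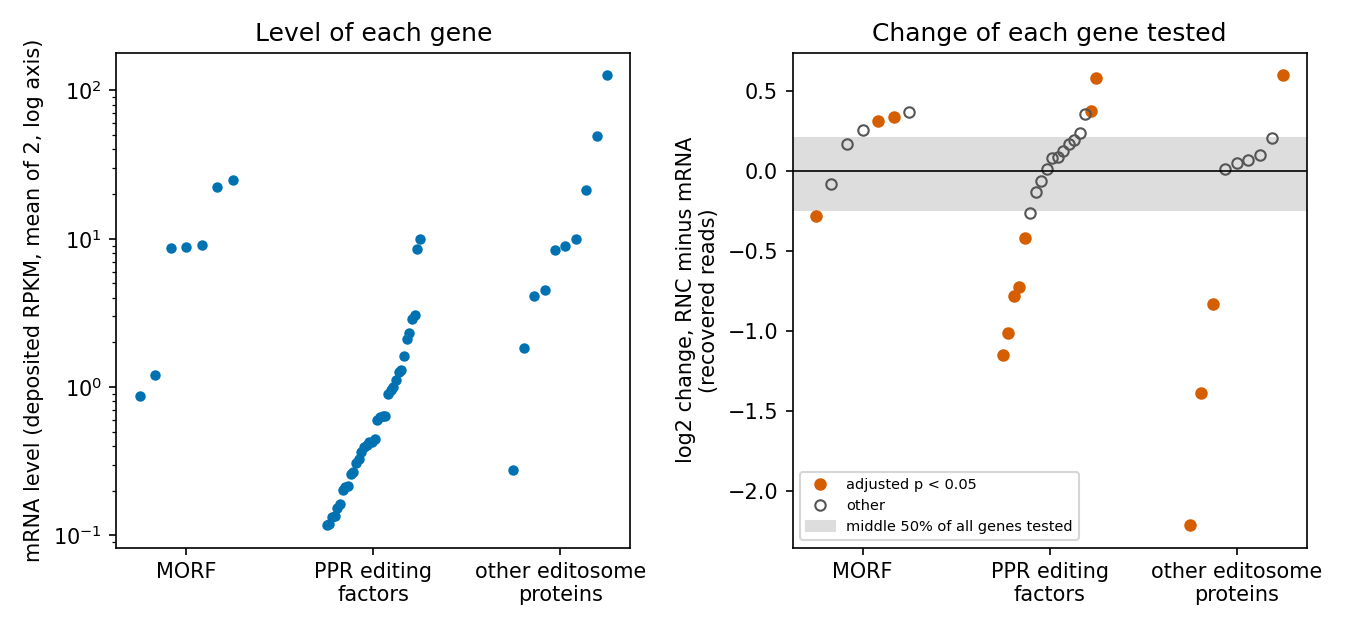
Left, mean mRNA level in deposited RPKM (log axis) of each MORF, PPR editing factor and other editosome gene, 1 point per gene. Right, log2 change from mRNA to RNC from recovered reads for the genes tested, filled where the limma adjusted p is under 0.05, with the middle 50% of all genes shaded. MORF genes lie above most PPR genes on the left, and their changes stay between -0.28 and 0.37 on the right.

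Among other editing genes, 2 of 15 plus-strand PPR factors held called positions, MEF14 and NUWA (AT3G49240) with 1 each, where 34.0% of all plus-strand genes held one and 2.82% to 20.8% did in the lower 50% by mRNA level. The median PPR level, 0.438 RPKM, lies in that lower range. Of 6 other plus-strand editosome genes, ORRM2 and ORRM5 held 11 and 10. The median was 1 among plus-strand genes of the level of ORRM2 and 14 among those of the level of ORRM5, MORF8 and MORF9. NUWA, a PPR partner protein, was named after its value was seen.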

How the data were processed

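The deposited tables hold, per the file headers, RPKM and TE per Arabidopsis transcript, and at reference cytosines a count of T reads, a count headed C and p-values. Per the submitters' processing notes, STAR 2.5.3a and SAMtools were used with TAIR10; the step each served is not given in the sources used here. The count headed C was taken as all reads, since the deposited p-value equals a continuity-corrected 2-proportion test on it (100% of sites, relative tolerance 0.001). Deposited TE is the natural log of the ratio of means (100%, tolerance 1e-06). Deposited mRNA RPKM gave whole reads over end minus start (100%, tolerance 0.01). RNC reads were recovered for 21174 of 21174 genes as the smallest whole reads with a whole length in both libraries (tolerance 1e-06) and for every transcript.

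Where transcripts differed, RPKM were averaged per gene. limma 3.58.1 (R 4.3.3; eBayes with trend) was run on log2(value + 1), two-sided and without block, keeping genes whose mean value reached 1, with Benjamini-Hochberg adjustment over all genes. The primary test used the deposited RPKM; recovered reads served as a second version of it and are described first, since the deposited RNC values use other lengths; scaling was to the reads over genes. Sites covered by 10 or more reads in each library were compared by Fisher's exact test (scipy 1.17.1) and called if the adjusted p was under 0.05 and the treated rate the higher one. A count of 0 was given the limit of 3 counts. Scripts were tested on simulated data. Members and lists were chosen with earlier results of these data known. Named genes were all members, up to 3 genes per list and direction with the smallest adjusted p in the deposited values, the 3 highest mRNA levels per list, the 3 nearest to MORF9, and up to 12 called sites. Alternatives covered pseudocount, filters, scaling, transcripts, trend, block, left-out libraries, site depth and site threshold. No Arabidopsis sequence was used here.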

Additional observations from a re-analysis of the deposited data

How the results depend on the processing

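From recovered reads (alternatives chosen after seeing the data), centring on library medians gave 4 members higher and 0 lower (limma; 2 and 1 without centring), with MORF7 at 0.0082, while all genes went from 2896 higher and 3591 lower to 4065 and 2885. Scaling to all reads of the library in place of reads over genes gave 4 genes higher and 12999 lower, 0 and 5 members, 0 and 7 PPR factors and 0 and 9 other editosome proteins (limma), and turned MORF3, MORF5, MORF6 and MORF8 to -1.19, -1.26, -1.12 and -1.28. Without a filter, 1 PPR factor was higher and 8 lower, of 2784 and 3679 genes. Leaving out 1 library gave 2 or 3 members higher and 0 or 1 lower, PPR factors 1 to 2 higher, and MORF7 between -0.29 and 0.13. The replicate numbers are not stated to pair libraries, and deviations of same-numbered libraries correlated at -0.02 over genes. With the replicate block, 12511 genes were higher and 2139 lower in the deposited values and 2961 and 3634 from reads, and MORF3 passed from reads (limma adjusted p = 0.0306).

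In the deposited values, recovered reads per span changed the counts to 2896 genes higher and 3591 lower, 2 members higher, 2 PPR factors higher and 5 lower, and 1 other editosome protein higher and 3 lower. MORF8 and MORF9 reversed to 0.31 and -0.28. Centring gave 6379 genes higher and 7216 lower, 3 members higher and 2 lower, 2 PPR factors higher and 10 lower, and 5 other proteins higher and 3 lower, and reversed MORF3 (-0.51) and MORF5 (-0.11). Beyond the steps of length and scaling shown above, the cause was not tested. Without a filter 2 members were lower and 20 PPR factors higher, of 2716 and 13923 genes. At a mean of at least 5 RPKM fewer genes were tested, with 8074 higher, 1128 lower and 2 PPR factors higher. Requiring a rate 1 point above control left 36217 sites called; all 18 sites of MORF8 and MORF9 were kept at 20 and 100 reads.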
